A study of Danio rerio with 18 samples.

Results

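The sarcomere, the contractile unit of striated muscle, is built from proteins that mostly exist as fast, slow and cardiac isoforms, each encoded by its own gene. The transcripts of these genes were followed through germ-free (GF), colonized and *myd88* mutant zebrafish larvae. The genes were chosen by symbol, as all those whose symbol starts with tnnc, tnni, tnnt, myhz, smyhc, mylz, mylpf, mybpc, myoz, ttn, actn, tpm, ldb3 or tcap, or is neb. The rule was set with earlier results of these data known. It gave 62 of the 31388 genes in the files. By the isoform that their names give, 25 belong to fast muscle, 9 to slow muscle, 5 to slow muscle and heart, 6 to heart, and 7 are used in all striated muscle. A further 6 encode tropomyosins, and *actn1* encodes an actinin of cells outside muscle. All classes, such as slow or cardiac, follow the name of the mammalian isoform, not where a gene is expressed in zebrafish. The remaining 3 were caught by spelling only, since *tpmt.1* and *tpmt.2* encode thiopurine methyltransferase, an enzyme that methylates thiopurine drugs, and *tnni3k* encodes a kinase of heart muscle. They are kept in the counts of the 62 genes, as the rule gives them, and their values are given apart.

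In a sarcomere, thick filaments of myosin pull on thin filaments of actin that are anchored in the Z discs at both ends. Calcium released in the fibre binds troponin C, which moves troponin I and troponin T and, with them, the tropomyosin strand that covers the myosin sites on actin. Titin spans from the Z disc to the centre of the sarcomere, nebulin runs along the thin filament, and telethonin (*tcap*), ZASP (*ldb3*), actinins and myozenins hold the Z disc together. In zebrafish larvae most trunk muscle is fast, with a thin layer of slow fibres under the skin, and the heart is small.

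RNA of whole larvae was taken at 5 days post fertilization (DPF), from pools of 15 larvae, and each of the 6 groups has 3 such libraries. Wildtype (WT) larvae of the ABTL line were kept GF, conventionalized (CONVD) with the water of conventionally reared larvae from 3 DPF, or mono-associated from 3 DPF with *Exiguobacterium* ZWU0009 or *Chryseobacterium* ZOR0023. Larvae lacking Myd88 (*myd88*-/-, allele hu3568), an adaptor of Toll-like receptors, were kept GF or CONVD. The mutants had been outcrossed to ABTL but were not siblings of the WT larvae, so that genotype and parents cannot be told apart. Whether the 3 pools of a group came from separate crosses is not stated in any source, and p-values therefore reflect only how far these pools differ.

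Read counts per library totalled 6404744 to 23600976, and the 62 genes held 5.30% to 6.31% of them. All 62 passed the filter on low counts, among 23367 genes tested, and none was at 0 in any library. Levels are given as CPM, the count of a gene scaled to a common library size with TMM factors. They are not divided by transcript length and were therefore compared between libraries, not between genes. Of 22 marker genes of fast, slow, cardiac and smooth muscle and of other tissues, none was at 0 in any library, and none was called in any comparison between colonized and GF larvae of the same genotype, where a call needs an adjusted p below 0.05 and a change of at least 1.3-fold. The heart marker *vmhc* passed the adjusted p alone with *Chryseobacterium* (log2 fold change -0.25, adjusted p = 0.034, edgeR). The *myd88* transcript itself averaged 10.5 ± 1.68 CPM in WT GF and 3.33 ± 0.411 CPM in mutant GF libraries (SD, n = 3), and was 4.85 ± 0.826 CPM in WT CONVD and 4.15 ± 0.389 CPM in mutant CONVD libraries (SD, n = 3). In mutants against WT larvae, 3 of the 22 markers rose and 6 fell in GF larvae, and 2 rose and 5 fell in CONVD larvae. Of all genes tested, 31.3% and 29.7% were called in these 2 comparisons. Among the markers called, the neuronal *elavl3*, the blood globin *hbae3* and, from the slow muscle list, *prox1a* and *tnnt1* fell in both. The remaining gene of the slow list, *smyhc1*, was higher in mutants in both by less than 1.3-fold. The heart gene *nppa* and *myh11a* of smooth muscle rose in both. The part of such differences in the results between genotypes was not tested.

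In 34 of the 62 genes the highest of the 18 libraries was less than 1.5 times the lowest, and in 13 it was over 2 times. The like shares over all genes tested were not computed. The steadiest of the 62 was *mylz3*, an essential light chain of fast myosin, whose highest library was 1.12 times its lowest. The widest ratio, 4.30, was that of *tnni1a*, a slow troponin I gene with as few as 3 counts in a library. The median biological coefficient of variation of the 62 genes was 0.0637, beside 0.0691 over all genes tested. The fast myosin heavy chain *myhz1.1* (ENSDARG00000067990) ranged from 9308 to 10752 CPM in the 12 WT libraries. Titin *ttna* (ENSDARG00000028213) ranged from 3942 to 5169.9 CPM there, nebulin (*neb*) from 959 to 1221 CPM, and the tropomyosin *tpma* of fast muscle from 3646 to 4103 CPM. The cardiac myosin-binding protein C *mybpc3* ranged from 75.4 to 104 CPM and the cardiac troponin T *tnnt2a*, the gene of the silent heart mutant, from 4.47 to 8.39 CPM.

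In 1 or more groups of colonized WT larvae a tropomyosin, a fast troponin I and a Z disc gene were called lower than in GF larvae. No myosin or titin gene passed the test in any of them. The troponin I and Z disc calls, and the tropomyosin call with *Chryseobacterium*, were lost when some single libraries were left out. Genes were called where the adjusted p (edgeR's quasi-likelihood test with Benjamini-Hochberg adjustment over all genes tested) was below 0.05 and the change was at least 1.3-fold. In CONVD against GF larvae 3 of the 62 were called, or 4.84%, beside 1.63% of all genes tested. The 3 were *tpm4a*, *tnni2a.1* and *tcap*, all lower in CONVD larvae. With *Exiguobacterium* 1 was called, *tpm4a*, or 1.61% beside 0.757% of all genes. With *Chryseobacterium* 2 were called, *tpm4a* and *tnni2a.1*, or 3.23% beside 1.51% of all genes. These 3 comparisons share the GF libraries and are therefore not independent of each other. In whole larvae, fewer cells of a type and less RNA per cell cannot be told apart.

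The tropomyosin gene *tpm4a* (ENSDARG00000023963) has as its human counterpart TPM4, a tropomyosin of the actin cytoskeleton found in many cells besides muscle. It stood at 74.4, 69.3 and 70.9 CPM in the 3 WT GF libraries. It stood at 49.9, 46.6 and 44.2 CPM in CONVD, 48.2, 47.5 and 49.9 CPM with *Exiguobacterium* and 48.7, 39.9 and 61.6 CPM with *Chryseobacterium*. Every colonized WT library lay below every GF library. The log2 fold change in CONVD larvae was -0.62 (standard error, SE, 0.09, adjusted p = 4.5e-05, edgeR). With *Exiguobacterium* it was -0.56 (SE 0.09, adjusted p = 7.0e-04, edgeR). With *Chryseobacterium*, whose 3 libraries were the most spread, it was -0.54 (SE 0.09, adjusted p = 8.6e-04, edgeR). This last call was lost without *Chryseobacterium* library 2, where the log2 fold change of -0.37 was under 1.3-fold, and when only its 6 libraries were fitted (adjusted p = 0.13, edgeR). The related *tpm4b* stood at 15.8, 14 and 15.5 CPM in GF and 11.2, 12.8 and 14.3 CPM in CONVD larvae, groups that overlapped, and was not called (adjusted p = 0.45, edgeR).

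**Figure D1:**
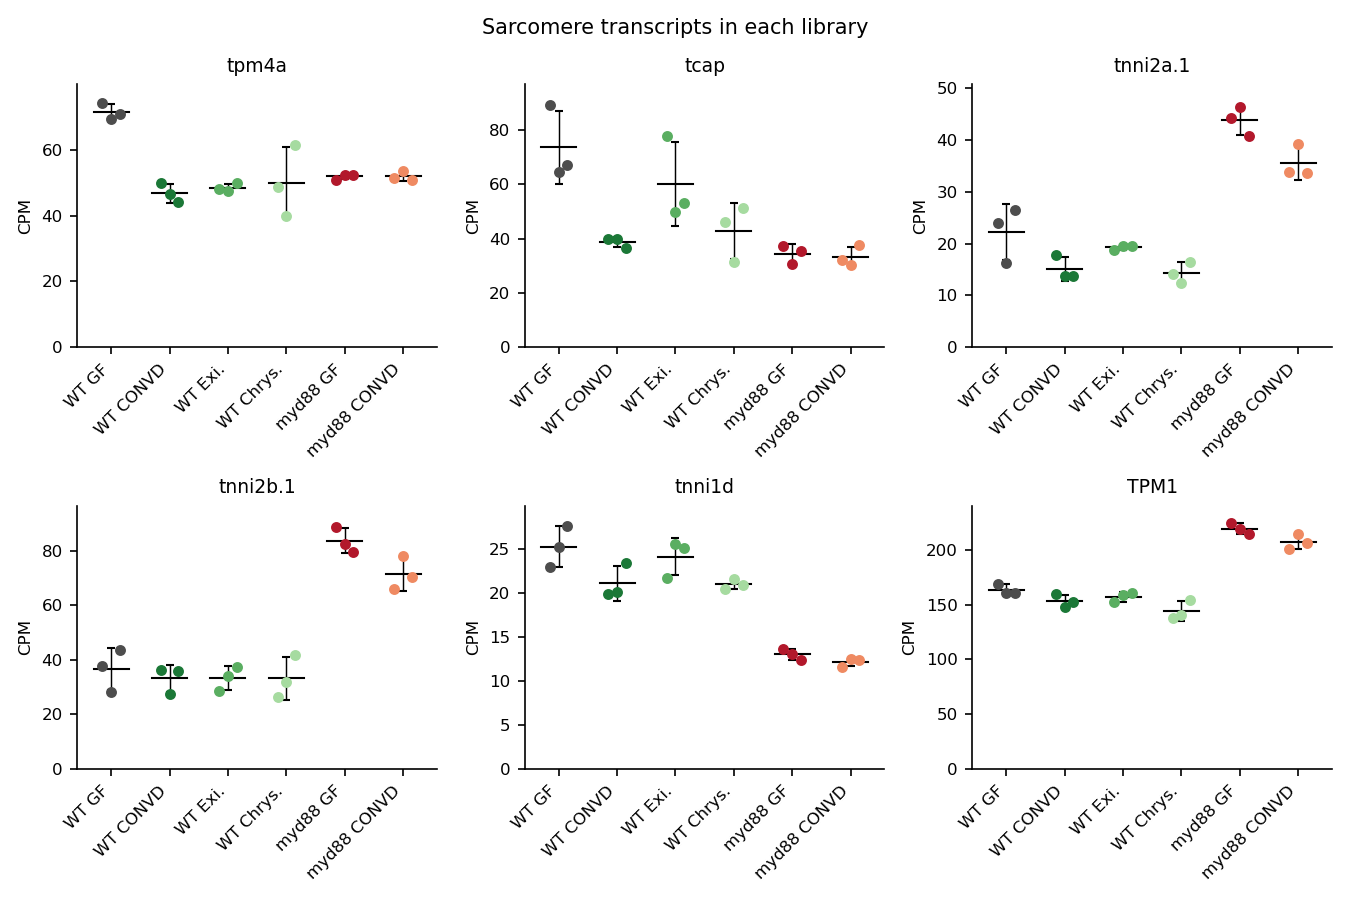
Level of 6 sarcomere genes in each of the 18 libraries. Each point is a library, the vertical axis is CPM from 0, the short line is the mean of the 3 libraries of a group and the bar its SD. The WT GF libraries stand above all others in *tpm4a*, while the mutant libraries stand above all WT libraries in *tnni2a.1*, *tnni2b.1* and *TPM1* and below them in *tnni1d*.

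Telethonin, the product of *tcap* (ENSDARG00000007344), caps the ends of titin in the Z disc. Its transcript stood at 89.2, 64.5 and 67.0 CPM in GF and 39.9, 39.8 and 36.5 CPM in CONVD WT larvae. The CONVD libraries lay close together and below all GF libraries, of which the first was the highest. The log2 fold change was -0.93 (SE 0.19, adjusted p = 0.024, edgeR). The call was lost without GF library 1 or 3 or any CONVD library (adjusted p up to 0.12, edgeR). With *Exiguobacterium* the libraries stood at 77.8, 49.7 and 53.0 CPM and overlapped those of GF larvae (log2 fold change -0.30, adjusted p = 0.71, edgeR). With *Chryseobacterium* they stood at 46.1, 31.4 and 51.2 CPM, all below GF, but did not pass the test (log2 fold change -0.82, adjusted p = 0.077, edgeR). The variation of *tcap* between libraries of a group, with a biological coefficient of variation of 0.166, was well above the median of the 62 genes.

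Of the 6 fast troponin I genes, which encode the inhibitory subunit of the troponin complex, *tnni2a.1* (ENSDARG00000045592) alone was called in these comparisons. It stood at 24.0, 16.3 and 26.5 CPM in GF, 17.9, 13.8 and 13.8 CPM in CONVD, 18.7, 19.6 and 19.5 CPM with *Exiguobacterium* and 14.2, 12.3 and 16.5 CPM with *Chryseobacterium*. GF library 2 was lower than the other GF libraries and overlapped each colonized group. The log2 fold change was -0.60 in CONVD (SE 0.14, adjusted p = 0.021, edgeR) and -0.68 with *Chryseobacterium* (SE 0.16, adjusted p = 0.023, edgeR). With *Exiguobacterium* it was -0.22 and was not called (adjusted p = 0.70, edgeR). Both calls were lost when edgeR was fitted to the compared groups only, and without GF library 1 or 3. The CONVD call was also lost without CONVD library 2 or 3, and the *Chryseobacterium* call without *Chryseobacterium* library 1 or 2. The genes *tnni2a.1* to *tnni2a.4* follow each other directly in the RefSeq order of the GRCz12tu assembly, and short reads may not always part such copies.

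Further genes passed the adjusted p without reaching 1.3-fold. In CONVD larvae the myozenin *myoz1b*, which ties calcineurin to the Z disc, and the ZASP gene *ldb3a* passed the adjusted p but changed by less than 1.3-fold. By the adjusted p alone, 5 of the 62 genes passed in CONVD larvae, or 8.06% beside 1.98% of all genes, and 3 passed with *Chryseobacterium*, or 4.84% beside 1.84%. The libraries of *myoz1b* stood at 211, 219 and 213 CPM in GF and 171, 186 and 177 CPM in CONVD larvae (log2 fold change -0.27, adjusted p = 0.0027, edgeR). Those of *ldb3a* stood at 163, 176 and 171 CPM in GF and 137, 158 and 137 CPM in CONVD larvae (log2 fold change -0.24, adjusted p = 0.018, edgeR). The groups did not overlap in either gene. The fast troponin T *tnnt3a* also passed the adjusted p alone, with *Chryseobacterium*, at 123, 136 and 135 CPM in GF and 101, 92.7 and 118 CPM in colonized larvae (log2 fold change -0.34, adjusted p = 0.017, edgeR). In CONVD larvae the change of *tnnt3a* was -0.27 (adjusted p = 0.069, edgeR), which missed the threshold.

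By class, the median log2 fold change in CONVD against GF WT larvae was -0.08 for fast, -0.14 for slow, -0.05 for cardiac and -0.05 for the genes of all striated muscle, beside -0.004 for all genes tested. With *Exiguobacterium* the medians were -0.03 for fast, -0.02 for slow and 0.03 for the genes of all striated muscle, and that of the cardiac genes was close to 0. With *Chryseobacterium* they were -0.05 for fast, -0.01 for slow, -0.03 for cardiac and 0.07 for the genes of all striated muscle. The median of the 6 tropomyosin genes was -0.11 in CONVD, -0.11 with *Exiguobacterium* and -0.14 with *Chryseobacterium*. Of the 9 slow and 6 cardiac genes, 0 were called in any of the 3 comparisons by edgeR and 0 by DESeq2 on all libraries. At an unadjusted p below 0.05, 16 of the 62 genes passed in CONVD, or 25.8% beside 10.7% of all genes, of which 10 were fast and 1 slow. With *Exiguobacterium* 6 passed, or 9.68% beside 9.27%, of which 2 were fast and 0 slow. With *Chryseobacterium* 15 passed, or 24.2% beside 11.2%, of which 6 were fast and 3 slow. No cardiac gene passed at that p in any of the 3. The slow myosin heavy chain *smyhc1* stood at 509, 576 and 619.9 CPM in GF and 499.5, 579 and 592 CPM in CONVD larvae. Titin *ttna* stood at 4632, 4536 and 4549.6 CPM in GF and 3942, 4851 and 4772 CPM in CONVD larvae, where the first library was below the others. In both genes the 2 groups overlapped.

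**Figure D2:**
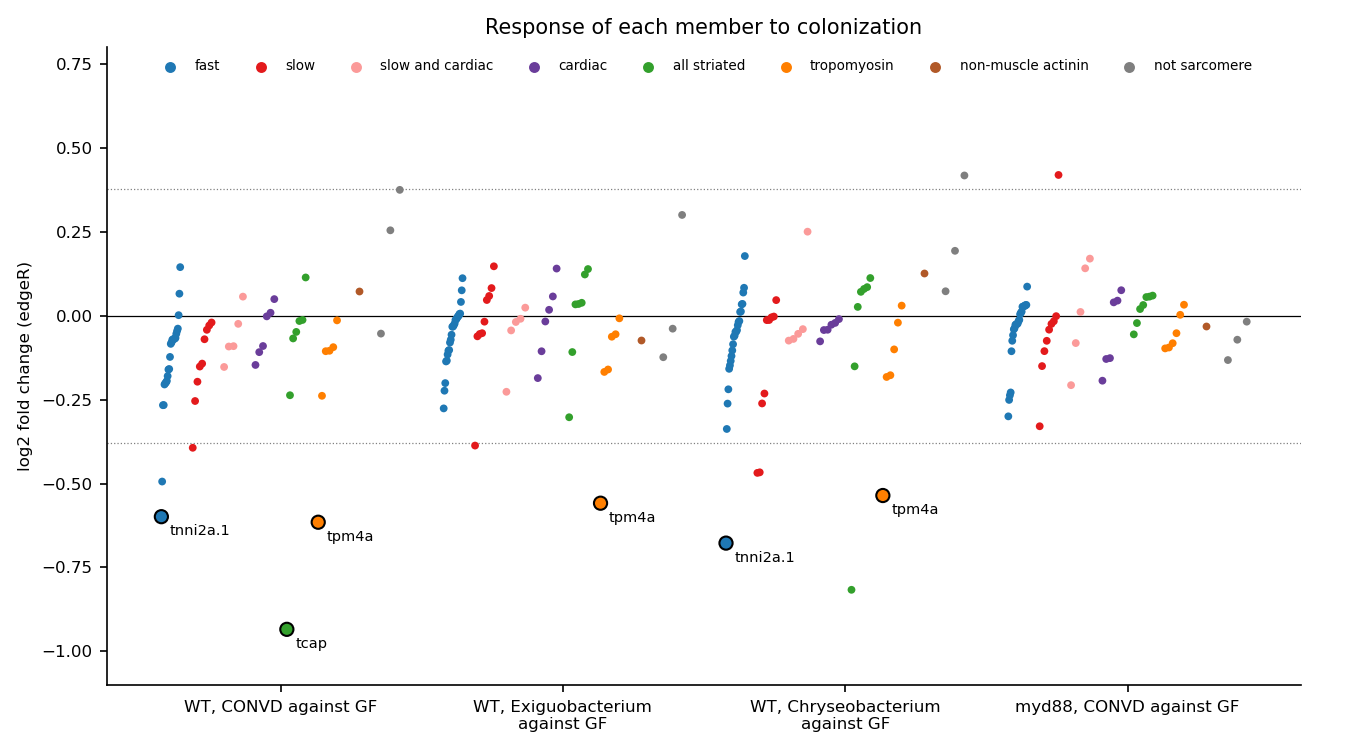
log2 fold change of each of the 62 genes in colonized against GF larvae, from edgeR, with classes in colour. Large outlined points passed the adjusted p of 0.05 and the 1.3-fold threshold, which the dotted lines mark. The 3 WT comparisons share the GF libraries. The outlined points are *tpm4a* in all 3 WT comparisons, *tnni2a.1* in 2 and *tcap* in 1, and there is none in mutants.

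In *myd88* mutants, CONVD against GF larvae, 0 of the 62 genes were called by edgeR and 0 by DESeq2, beside 0.077% of all genes tested by edgeR. At an unadjusted p below 0.05 there were 3, or 4.84% beside 6.61% of all genes. The 2 lowest adjusted p among the 62 genes were those of *tnni1b*, a slow troponin I gene, and *tnni2a.1*. The libraries of *tnni1b* stood at 14.6, 11.7 and 11.1 CPM in GF and 8.93, 10.3 and 10.8 CPM in CONVD mutants (log2 fold change -0.33, adjusted p = 0.50, edgeR). Those of *tnni2a.1* stood at 44.3, 46.4 and 40.9 CPM in GF and 33.9, 39.3 and 33.6 CPM in CONVD mutants (log2 fold change -0.30, adjusted p = 0.62, edgeR). In both genes all CONVD libraries lay below all GF libraries, yet neither passed.

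Whether conventionalization acted differently in the 2 genotypes was tested as an interaction, coded as the mutant minus the WT change. This test uses the WT GF and WT CONVD libraries again and is therefore not independent of the comparisons above. The interaction was called for 1 of the 62 genes, *tpm4a*, or 1.61% beside 0.813% of all genes. In mutants *tpm4a* stood at 51.0, 52.5 and 52.4 CPM in GF and 51.6, 53.6 and 50.8 CPM in CONVD larvae. These 6 libraries lay within a narrow range, below the WT GF libraries and above the WT CONVD libraries. The log2 fold change in mutants was 0.002 (approximate 95% interval -0.17 to 0.17), and the interaction was 0.62 (SE 0.12, adjusted p = 0.0082, edgeR). For *tcap* the interaction was 0.88 but did not pass (SE 0.28, adjusted p = 0.35, edgeR). It was called when only the compared groups were fitted, in edgeR and in DESeq2. For *tnni2a.1* it was 0.30 (approximate 95% interval -0.05 to 0.65), so that a lesser, a like or a greater fall in mutants could not be told apart.

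Between mutant and WT larvae more genes differed, with opposite signs within the same protein family. In GF larvae 14 of the 62 genes were called, 6 higher and 8 lower in mutants, or 22.6% beside 31.3% of all genes tested. In CONVD larvae 11 were called, 7 higher and 4 lower, or 17.7% beside 29.7%. The WT GF and WT CONVD libraries used here also entered the colonization comparisons and the interaction. Calls of a gene in these, such as *tpm4a* or *tcap*, are therefore not independent. Without the 3 genes caught by spelling, of which 2 were called higher in both, 12 of 59 were called in GF larvae (4 higher and 8 lower, 20.3%) and 9 in CONVD larvae (5 higher and 4 lower, 15.3%). By the adjusted p alone 35 passed in GF larvae, or 56.5% beside 44.6% of all genes, and 25 in CONVD larvae, or 40.3% beside 44.6%. The comparisons in GF and in CONVD larvae share no library, but both set mutants against WT larvae that were not their siblings. They called 9 genes in common, 64.3% of the GF list and 81.8% of the CONVD list, and all 9 had the same sign. These were *tnni1d*, *tnni2a.1*, *tnni2b.1*, *tnnt1*, *tnnt2c*, *TPM1*, *tpm4b* and the methyltransferase genes *tpmt.1* and *tpmt.2*. The like overlap over all genes tested, of which 31.3% and 29.7% were called, was not computed.

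Troponin I genes differed in both directions. The fast gene *tnni2a.1* stood at 44.3, 46.4 and 40.9 CPM in GF mutants, above the 12 WT libraries, which ranged from 12.3 to 26.5 CPM. Its log2 fold change was 0.96 in GF (SE 0.13, adjusted p = 3.4e-06, edgeR) and 1.26 in CONVD larvae (SE 0.12, adjusted p = 8.4e-08, edgeR). The fast gene *tnni2b.1* (ENSDARG00000035958) stood at 37.9, 28.2 and 43.4 CPM in WT GF and 88.7, 82.6 and 79.7 CPM in GF mutants, with no overlap (log2 fold change 1.19, SE 0.17, adjusted p = 7.1e-05, edgeR). In CONVD larvae it stood at 36.2, 27.4 and 36.0 CPM in WT and 66.1, 78.1 and 70.2 CPM in mutants (log2 fold change 1.12, adjusted p = 8.6e-05, edgeR). The neighbouring *tnni2b.2* differed the other way and by less than 1.3-fold in GF larvae, at 280.4, 279 and 301 CPM in WT and 246, 269 and 258 CPM in mutants (log2 fold change -0.15, adjusted p = 0.035, edgeR).

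Most reads of the family came from *tnni2a.4*, which held 67.5 to 71.6% of the counts of the 11 troponin I genes in WT and 65.8 to 68.3% in mutant libraries. The share of *tnni2b.1* was 1.51 to 2.45% in WT and 4.04 to 5.05% in mutant libraries, and that of *tnni2a.1* 0.753 to 1.5% and 2.06 to 2.75%. These shares follow transcript length as well as number and were compared only between libraries.

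Of the 5 slow troponin I genes, *tnni1d* (ENSDARG00000073766) was lower in mutants. It stood at 22.9, 25.2 and 27.7 CPM in WT GF, 19.8, 20.1 and 23.4 CPM in WT CONVD, 13.6, 13.1 and 12.4 CPM in GF mutants and 11.6, 12.4 and 12.4 CPM in CONVD mutants. No mutant library reached the lowest WT library. The log2 fold change was -0.95 in GF (SE 0.10, adjusted p = 3.9e-09, edgeR) and -0.80 in CONVD larvae (SE 0.09, adjusted p = 5.0e-08, edgeR). The other 4, which include *tnni1al*, a gene that RefSeq names *tnni4b.2*, were not called. Among them *tnni1b* stood at 10.1, 11.1 and 9.33 CPM in WT GF and 14.6, 11.7 and 11.1 CPM in GF mutants and passed the adjusted p alone in GF larvae, with groups that overlapped (log2 fold change 0.30, adjusted p = 0.042, edgeR).

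**Figure D3:**
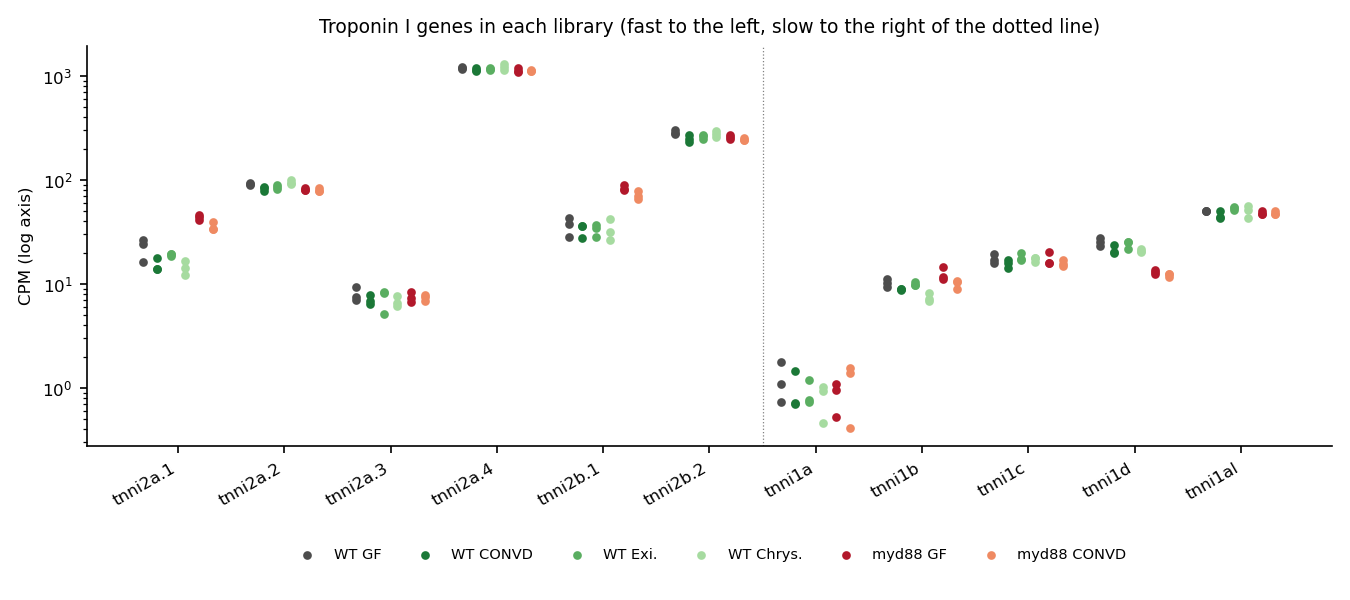
CPM of the 11 troponin I genes in every library on a log axis, with groups in colour and fast genes to the left of the dotted line. Mutant libraries stand above WT in *tnni2a.1* and *tnni2b.1* and below WT in *tnni1d*, while the points of all groups lie close together in *tnni2a.4*.

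Troponin T binds the troponin complex to tropomyosin. Its slow gene *tnnt1* stood at 13.5, 13.7 and 12.7 CPM in WT GF and 9.52, 7.44 and 10.6 CPM in GF mutants, with no overlap (log2 fold change -0.54, SE 0.13, adjusted p = 0.0014, edgeR). In CONVD larvae it stood at 12.3, 13.5 and 12.8 CPM in WT and 9.71, 8.53 and 8.30 CPM in mutants, again with no overlap (log2 fold change -0.54, adjusted p = 6.9e-04, edgeR). The fast gene *tnnt3a* was lower in GF mutants, at 100.2, 105 and 88.3 CPM against 123, 136 and 135 CPM (log2 fold change -0.42, SE 0.08, adjusted p = 6.4e-05, edgeR). In CONVD larvae its groups overlapped (log2 fold change -0.07, adjusted p = 0.49, edgeR), and the interaction did not pass (adjusted p = 0.19, edgeR). Without mutant GF library 3 the change of *tnnt3a* was -0.35, under 1.3-fold. The cardiac gene *tnnt2c* stood at 5.73, 7.81 and 6.22 CPM in WT GF and 8.58, 8.09 and 9.48 CPM in GF mutants, with no overlap. It was higher in mutants in both comparisons, with log2 fold changes of 0.42 in GF (adjusted p = 0.021, edgeR) and 0.44 in CONVD larvae (adjusted p = 0.0093, edgeR). The GF call was lost without WT GF library 1 or 3 or mutant GF library 3, and the CONVD call without WT CONVD library 2 or mutant CONVD library 3. The most counted cardiac troponin T gene, *tnnt2e*, stood at 92.5, 94.7 and 101 CPM in WT GF and 95.2, 98.2 and 97.2 CPM in GF mutants and did not pass there (adjusted p = 0.88, edgeR).

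The tropomyosins also split. The gene given as *TPM1* (ENSDARG00000087402), counterpart of the human gene of striated muscle tropomyosin, stood at 169, 161 and 160.3 CPM in WT GF and 224, 219 and 215 CPM in GF mutants. In CONVD larvae it stood at 159, 148 and 153 CPM in WT and 201, 214 and 207 CPM in mutants. All mutant libraries lay above all WT libraries, with log2 fold changes of 0.43 in GF (SE 0.05, adjusted p = 1.7e-07, edgeR) and 0.44 in CONVD larvae (SE 0.05, adjusted p = 9.1e-08, edgeR). In contrast, *tpm4b* stood at 15.8, 14 and 15.5 CPM in WT GF and 11.1, 9.71 and 9.86 CPM in GF mutants (log2 fold change -0.57, adjusted p = 2.3e-04, edgeR). It was also lower in CONVD mutants (log2 fold change -0.42, adjusted p = 0.0028, edgeR), a change that was under 1.3-fold without WT CONVD library 3 or mutant CONVD library 2. The paralog *tpm4a* was lower in mutants in GF larvae (log2 fold change -0.46, SE 0.09, adjusted p = 1.2e-04, edgeR). In CONVD larvae it did not pass (log2 fold change 0.15, adjusted p = 0.15, edgeR). Of the counts of the 6 tropomyosin genes, *tpma* held 81.4 to 84.5% in WT and 78.3 to 80.2% in mutant libraries, *tpm3* of slow muscle 5.97 to 7.44% and 7.91 to 8.59%, and *TPM1* 2.95 to 3.64% and 4.59 to 5.10%.

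Troponin C, the calcium sensor, and the light chains of fast myosin among the 62 genes were called in neither genotype comparison. The fast *tnnc2* stood at 2241, 2208 and 2255 CPM in WT GF and 2159, 2163 and 1998 CPM in GF mutants (log2 fold change -0.08, adjusted p = 0.11, edgeR). The gene given as *TNNC2 (2 of 2)* stood at 6.64, 6.93 and 7.98 CPM in WT GF and 9.77, 8.99 and 9.19 CPM in GF mutants, with no overlap. It passed the adjusted p and lay just under 1.3-fold (log2 fold change 0.38, adjusted p = 0.025, edgeR), and it was called by DESeq2. The *tnnc1b* gene of slow muscle and heart stood at 77.2, 81.2 and 85.0 CPM in WT GF and 87.5, 87.2 and 81.5 CPM in GF mutants, groups that overlapped (log2 fold change 0.08). The regulatory light chain *mylpfa* stood at 5509, 5491 and 5491 CPM in WT GF and 5133, 5416 and 5253 CPM in GF mutants (log2 fold change -0.06, approximate 95% interval -0.15 to 0.02). For *mylpfb* the log2 fold change was -0.11 (approximate 95% interval -0.22 to 0.01), and for the essential light chain *mylz3* it was -0.05 (approximate 95% interval -0.13 to 0.02). None of these intervals for light chains reached a change of 1.3-fold.

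**Figure D4:**
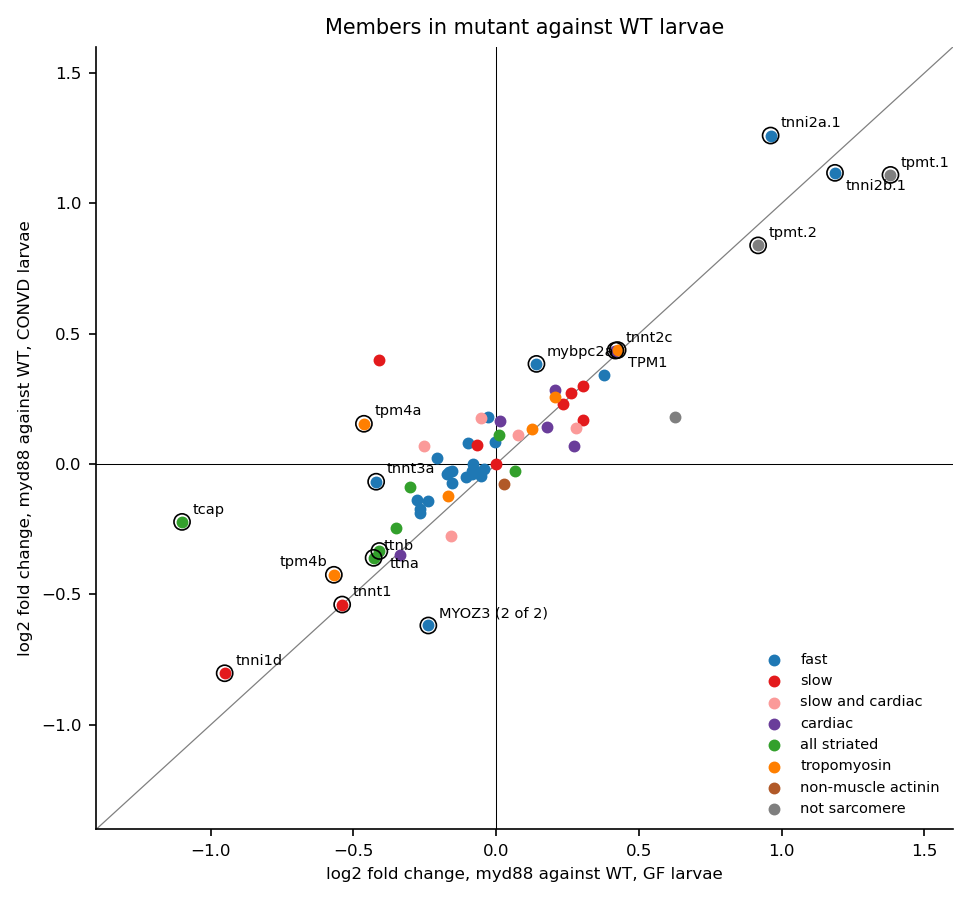
log2 fold change of each of the 62 genes in mutant against WT larvae, in GF (horizontal) and CONVD larvae (vertical), from edgeR, with classes in colour. Circled genes passed the adjusted p of 0.05 and 1.3-fold in at least 1 of the comparisons, which share no library, and the grey line marks equal changes. The 9 genes called in both lie near the line, while *tcap* and *tpm4a* lie away from it.

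Among the myosin heavy chains, 3 of the 4 fast genes were lower and both slow genes higher in mutants, all by less than 1.3-fold. The fast *myhz1.1* stood at 9911, 10385 and 10516 CPM in WT GF and 8475, 8619 and 8519 CPM in GF mutants (log2 fold change -0.27, SE 0.04, adjusted p = 6.1e-06, edgeR). The slow *smyhc1* stood at 509, 576 and 619.9 CPM in WT GF and 688, 676 and 681 CPM in GF mutants (log2 fold change 0.26, SE 0.06, adjusted p = 9.8e-04, edgeR). Neither gene's groups overlapped, and neither met the fold threshold. In CONVD larvae the log2 fold changes were -0.19 for *myhz1.1* (adjusted p = 4.8e-04, edgeR) and 0.27 for *smyhc1* (adjusted p = 5.8e-04, edgeR). The values of *myhz1.2* and *myhz1.3* followed *myhz1.1*, at -0.27 and -0.24 in GF larvae, whereas *myhz2* was at -0.08 and did not pass (adjusted p = 0.15, edgeR). These 4 genes and the pair *smyhc1* and *smyhc2* (log2 fold change 0.23 in GF larvae) are close relatives that lie near each other in the RefSeq gene order, so short reads may be split between them. Counted together, the slow genes held 4.61 to 5.41% of the slow and fast myosin heavy chain counts in WT and 6.38 to 6.83% in mutant libraries, with no overlap.

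The slow myosin-binding protein C *mybpc1*, which tunes cross-bridges on the thick filament, stood at 58.8, 50.9 and 55.4 CPM in WT GF and 67.8, 66.4 and 70.4 CPM in GF mutants and also passed by adjusted p alone (log2 fold change 0.30, adjusted p = 2.2e-04, edgeR). Its fast counterpart *mybpc2a* stood at 12.4, 13.2 and 11.8 CPM in WT CONVD and 13.7, 18.9 and 16.6 CPM in CONVD mutants and was called there (log2 fold change 0.38, SE 0.13, adjusted p = 0.018, edgeR). The call lay at the fold threshold and was lost without WT CONVD library 1 or 3 or mutant CONVD library 2 or 3, with library totals alone and with the groups fitted alone in edgeR. In GF larvae *mybpc2a* did not pass (log2 fold change 0.14, adjusted p = 0.41, edgeR). The cardiac *mybpc3* stood at 81.0, 77.8 and 104 CPM in WT GF and 101, 101 and 95.7 CPM in GF mutants, groups that overlapped.

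The transcripts of titin and nebulin were lower in mutants. Titin *ttna* stood at 4632, 4536 and 4549.6 CPM in WT GF and 3302, 3503 and 3526 CPM in GF mutants (log2 fold change -0.41, SE 0.06, adjusted p = 1.7e-06, edgeR). Its paralog *ttnb* stood at 2402, 2322 and 2299.8 CPM and 1677, 1758 and 1782 CPM (log2 fold change -0.43, SE 0.06, adjusted p = 1.1e-06, edgeR). The groups did not overlap in either gene. In CONVD larvae both passed the adjusted p but were under 1.3-fold, at -0.33 for *ttna* (adjusted p = 2.7e-05, edgeR) and -0.36 for *ttnb* (adjusted p = 1.2e-05, edgeR). The ratio of the titin genes hardly varied, with 1.92 to 1.98 counts of *ttna* per count of *ttnb* in WT and 1.97 to 1.99 in mutant libraries, though reads of such paralogs may not be fully parted. Nebulin stood at 1109.9, 1093 and 1108 CPM in WT GF and 823, 908 and 868 CPM in GF mutants, and was lower by less than 1.3-fold in GF (log2 fold change -0.35, adjusted p = 4.4e-06, edgeR) and in CONVD larvae (log2 fold change -0.25, adjusted p = 4.0e-04, edgeR).

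**Figure D5:**
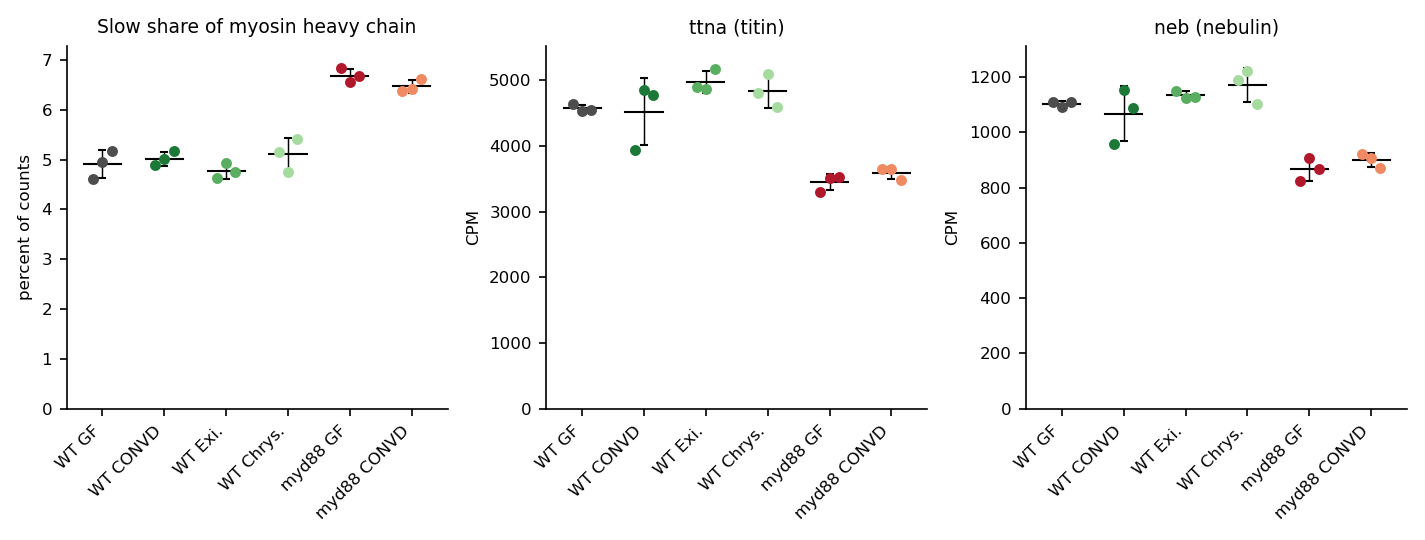
Percentage of slow genes among slow and fast myosin heavy chain counts, and CPM of titin *ttna* and nebulin, in each library, with the vertical axes from 0. Points are libraries, the line is the mean of a group and the bar its SD. The 6 mutant libraries stand above all WT libraries in the slow share and below all of them in *ttna* and *neb*.

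At the Z disc, *tcap* stood at 37.2, 30.7 and 35.5 CPM in GF mutants, below the WT GF libraries (89.2, 64.5 and 67.0 CPM), and changed by -1.1 on the log2 scale (SE 0.20, adjusted p = 5.9e-04, edgeR). In CONVD larvae the groups overlapped (log2 fold change -0.22, adjusted p = 0.40, edgeR). The gene given as *MYOZ3 (2 of 2)*, a myozenin of fast muscle, stood at 8.0, 9.72 and 8.80 CPM in WT CONVD and 4.88, 6.48 and 6.24 CPM in CONVD mutants and was called there (log2 fold change -0.62, SE 0.14, adjusted p = 7.8e-04, edgeR). In GF larvae its groups overlapped (log2 fold change -0.24, adjusted p = 0.22, edgeR). The interaction did not pass for either gene in the fit of all libraries. The ZASP gene *ldb3a* stood at 163, 176 and 171 CPM in WT GF and 136, 141 and 137 CPM in GF mutants, with no overlap, and was lower there by less than 1.3-fold (log2 fold change -0.30, adjusted p = 8.0e-05, edgeR). In CONVD larvae *ldb3a* did not pass (log2 fold change -0.09, adjusted p = 0.22, edgeR). The actinin *actn3a* of fast muscle, which cross-links thin filaments, stood at 1168, 1246 and 1236 CPM in WT GF and 1082, 1128 and 1046 CPM in GF mutants (log2 fold change -0.16, adjusted p = 0.0047, edgeR). The calsarcin *myoz2a* of slow muscle and heart stood at 48.4, 52.2 and 49.0 CPM and 42.2, 41.5 and 41.7 CPM in the same groups, with no overlap (log2 fold change -0.25, adjusted p = 0.0057, edgeR), and neither gene reached 1.3-fold. The actinin *actn1* stood at 41.5, 46.3 and 51.9 CPM in WT GF and 46.2, 46.8 and 49.4 CPM in GF mutants and was not called in any of the 10 comparisons.

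By class, the median log2 fold change in GF mutants against GF WT larvae was -0.35 for the genes of all striated muscle, -0.10 for fast, close to 0 for slow and 0.19 for cardiac genes, beside -0.01 for all genes. In CONVD larvae the medians were -0.22, -0.03, 0.17 and 0.15 in the same order, beside -0.007 for all genes. The summed CPM of the 5 fast muscle markers ranged from 25429 to 26422 in WT GF and from 21700.4 to 22722 in mutant GF libraries, that of the 3 slow markers from 562 to 669 and from 708 to 722, and that of the 4 heart markers from 102 to 112 and from 119.9 to 123. The markers *myhz1.1*, *smyhc1* and *tnnt1* are themselves among the genes described. Of the fast markers in GF larvae, *myhz1.1* and the calcium buffer parvalbumin *pvalb2* (log2 fold change -0.42, adjusted p = 2.9e-08, edgeR) were lower in mutants. The other 3 did not pass, with log2 fold changes of 0.04 for *ckma*, -0.09 for *acta1b* and -0.11 for *atp2a1*. Within the slow list *smyhc1* was higher while *tnnt1* and *prox1a* were lower in mutants.

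Of the genes that the rule caught by spelling, *tpmt.1* had the widest difference between genotypes, at 4.10, 3.53 and 3.63 CPM in WT GF and 11.2, 9.90 and 8.36 CPM in GF mutants (log2 fold change 1.38, SE 0.16, adjusted p = 2.8e-08, edgeR). The neighbouring *tpmt.2* stood at 2.00, 2.27 and 4.35 CPM and 6.18, 5.69 and 4.33 CPM (log2 fold change 0.92, adjusted p = 9.8e-04, edgeR). The groups did not overlap in *tpmt.1* and overlapped in *tpmt.2*, and these neighbours may share reads. The kinase gene *tnni3k* was not called in any comparison.

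Between the colonized WT groups no sarcomere gene was called by edgeR or by DESeq2 on all libraries. The background was 0.257% of all genes for *Exiguobacterium* against CONVD, 0.116% for *Chryseobacterium* against CONVD and 0.77% for *Chryseobacterium* against *Exiguobacterium*. At an unadjusted p below 0.05 there were 11 of the 62 genes in the first, or 17.7% beside 7.1% of all genes. There were 10 in the second, or 16.1% beside 6.1%, and 9 in the third, or 14.5% beside 10.8%. The closest was *mybpc1*, which stood at 60.8, 57.0 and 55.0 CPM with *Exiguobacterium* and 48.2, 46.1 and 46.8 CPM with *Chryseobacterium*. These groups did not overlap, and the gene passed the adjusted p but not 1.3-fold (log2 fold change -0.29, SE 0.07, adjusted p = 0.024, edgeR). By the adjusted p alone it was the 1 gene of the 62 to pass there, or 1.61% beside 0.929% of all genes. In *Exiguobacterium* against CONVD larvae the lowest adjusted p was that of *mybpc2a*, at 12.4, 13.2 and 11.8 CPM in CONVD and 18, 14.8 and 19.3 CPM with *Exiguobacterium* (log2 fold change 0.49, adjusted p = 0.19, edgeR). In *Chryseobacterium* against CONVD larvae it was that of *tnni2a.2*, at 78.2, 84.8 and 83.5 CPM in CONVD and 92.5, 90.4 and 99.9 CPM with *Chryseobacterium* (log2 fold change 0.19, adjusted p = 0.39, edgeR).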

How the data were processed

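RNA of 18 pools of whole larvae was sequenced from 1 end with a kit that does not mark strand. The authors ran GeneTiles on GRCz10 and deposited read counts per Ensembl gene, 1 table per library. The submitters' processing notes list Bowtie2, SAMtools and DESeq without a version. In 9 libraries the deposited column also holds 1 unnamed entry of 0.747 to 1.48 that is not whole. For that entry alone these 9 columns were labelled expected counts, and the label does not mean another way of counting. Their expected counts are, like those of the other libraries, read counts that GeneTiles made on GRCz10 before the files were deposited. The unnamed entry was left out, all gene values were whole, and nothing was rounded. Low genes were removed with filterByExpr (min.count 10, min.total.count 15).

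All 18 libraries entered 1 fit of edgeR 4.0.16 (TMM, quasi-likelihood test, Benjamini-Hochberg adjustment over all 23367 genes tested) in R 4.3.3. A gene was called at an adjusted p below 0.05 and at least 1.3-fold. CPM use TMM library sizes, and fold changes the default prior count of the edgeR fit. A prior count of 2 was used only for the log2 CPM from which libraries of like number were correlated. The 12 residual degrees of freedom are shared by all groups. Standard errors were derived from the test, as the absolute log2 fold change divided by the square root of its F statistic. Intervals of 95% are approximate, from the log2 fold change and this standard error. The script was tested on simulated data. Replicates differed by more than sampling noise in all 18 pairs (chi-square per degree of freedom 1.65 to 5.48).

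Alternatives were RLE size factors, library totals, no filter, no fold threshold, a replicate block, DESeq2 1.42.0, the groups of a comparison alone, each library left out, and *Chryseobacterium* libraries 1 and 3 left out together. The genes and lists were chosen with earlier results of these data known. In each class the 2 genes with the highest mean CPM, every gene called (at most the 10 lowest adjusted p per comparison) and the 2 nearest the threshold where none was called were named by rule. Further genes were named to complete a family, after their values were seen. Gene neighbours come from the RefSeq order of GRCz12tu, and no coordinates or sequences were used.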

Additional observations from a re-analysis of the deposited data

Results flagged for a closer look

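The response of *tpm4a* to conventionalization differed between genotypes, with an interaction of 0.62 in log2 units (SE 0.12, adjusted p = 0.0082 for the interaction term in edgeR). Its log2 fold change was -0.62 in CONVD against GF WT larvae and near 0 in mutants, whose GF level was already -0.46 from that of WT GF larvae. The interaction, the -0.62 and the -0.46 all rest on the same 3 WT GF libraries and are not independent. All 3 WT CONVD libraries lay below all 3 WT GF libraries. The interaction was called under each of the alternatives run, with each library left out as well as in DESeq2.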

How the results depend on the processing

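No called change turned its direction under the alternatives run. Of the values for single genes and class medians under an alternative, 637 stayed as they were, 34 fell short of the threshold and 1 passed it. A gene stayed if it kept its side of the threshold. A class median stayed if it moved by less than the SD between libraries of a group. Of the counts of genes called, 134 stayed within 1.5 times, 7 rose and 8 fell by more. Without the fold threshold the counts were 5 in WT CONVD against GF, 35 and 25 in mutants against WT in GF and CONVD larvae, and 1 in *Chryseobacterium* against *Exiguobacterium*, because fewer conditions were set. When edgeR was fitted to the compared groups only, the count with *Chryseobacterium* against GF was 0 and that of the interaction 2, with *tcap* added. In DESeq2 on the same groups the interaction count was 2 and that of *Exiguobacterium* against CONVD 1, *tcap* in both. The cause was not tested. With single libraries left out, the counts ranged from 1 to 4 in WT CONVD and from 0 to 3 with *Chryseobacterium* against GF. The count of 1 in CONVD came without GF library 3 or CONVD library 2 or 3. With *Chryseobacterium* it was 1 without GF library 1 or 3 or *Chryseobacterium* library 1, and 0 without *Chryseobacterium* library 2. Without *Chryseobacterium* libraries 1 and 3, where the remaining library is assumed to vary like the other groups, *tpm4a* and *tnnt3a* were called and *tnni2a.1* was not.

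With the replicate number as a block, 4 genes were called in WT CONVD, 3 with *Chryseobacterium* and 15 in GF mutants against WT, each the main list with 1 gene more, and no other count changed. The deviations of same-numbered libraries correlated at -0.092 to 0.18 (median 0.0044, over 0.1 in 4 of 45 pairs). Those of differently numbered libraries correlated at -0.17 to 0.088 (median -0.0024, over 0.1 in 0 of 90 pairs). These values do not settle whether some of the numbers mark pairs.

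Low depth limits the genes with few counts, such as *tnni1a*, and close copies limit the split of reads within the *myhz*, *smyhc*, *tnni2a* and titin families.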

Other observations

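Other lists of muscle genes were counted by the same test. In the 3 comparisons of colonized against GF WT larvae, 0 were called of 22 filament genes outside the symbol rule, 14 heart chamber genes and 25 calcium handling genes. The same held for 17 genes of muscle energy metabolism, 23 myogenic regulators and 12 smooth muscle genes. Of 16 genes of myofibril assembly, *bag3* fell in CONVD larvae (log2 fold change -0.43, adjusted p = 0.044, edgeR), and none was called with either bacterium. Of 12 genes of muscle wasting, 3 fell in CONVD, 1 with *Exiguobacterium* and 4 with *Chryseobacterium*, each against GF WT larvae, and 0 rose. Over all genes tested 1.63%, 0.757% and 1.51% were called in these comparisons. The list was set with earlier results of these data known, and the paper had reported its member *cebpd* as suppressed in conventionalized larvae. These counts are therefore a description and no independent support for a change in muscle wasting. The genes that fell in CONVD larvae were *ddit4*, an inhibitor of mTORC1 (log2 fold change -0.79), *fkbp5*, a co-chaperone of the glucocorticoid receptor (-0.70), and *trim63b*. With *Exiguobacterium* it was *fkbp5* (-0.59). With *Chryseobacterium* they were *ddit4* (-0.80), *fkbp5* (-0.69), *trim63b* and the transcription factor gene *cebpd* (-0.82). The ubiquitin ligase gene *trim63b* (MuRF1, which marks sarcomere proteins for breakdown), named after its values were seen, stood at 57.6, 49.8 and 50.3 CPM in GF and 43.3, 36.4 and 40.9 CPM in CONVD larvae (log2 fold change -0.40, SE 0.09, adjusted p = 0.015, edgeR). With *Chryseobacterium* it stood at 39.5, 43.4 and 31.9 CPM (log2 fold change -0.45, SE 0.10, adjusted p = 0.012, edgeR). All colonized libraries of these 2 groups lay below all GF libraries, whereas those with *Exiguobacterium*, at 50.1, 39.3 and 46.8 CPM, overlapped GF. The ubiquitin ligase gene *fbxo32* (atrogin-1) was not called in these comparisons. It stood at 12.6, 7.44 and 4.87 CPM in GF, 18.5, 15.6 and 10.2 CPM in CONVD, 16.1, 8.93 and 14.5 CPM with *Exiguobacterium* and 10.5, 8.29 and 10.8 CPM with *Chryseobacterium*, and each colonized group overlapped GF. Of 29 further genes of the Z disc and M band, *fhl1b*, a LIM protein gene, fell in CONVD (log2 fold change -0.59, SE 0.12, adjusted p = 0.003, edgeR) and with *Chryseobacterium* (log2 fold change -0.60, SE 0.13, adjusted p = 0.0098, edgeR). The gene *capn3b* is named after calpain 3, which in mammals is a muscle protease that binds titin. It stood at 16.4, 17.8 and 23.7 CPM in GF, 12.3, 15.6 and 14 CPM in CONVD, 17.2, 16.4 and 17.3 CPM with *Exiguobacterium* and 30.1, 29.9 and 36.6 CPM with *Chryseobacterium*. All *Chryseobacterium* libraries lay above the other WT libraries. The gene rose against GF (log2 fold change 0.73, SE 0.12, adjusted p = 3.7e-04, edgeR), against CONVD (log2 fold change 1.17, SE 0.12, adjusted p = 1.3e-06, edgeR) and against *Exiguobacterium* (log2 fold change 0.91, SE 0.12, adjusted p = 9.7e-05, edgeR). The tissues in which *fhl1b* and *capn3b* changed cannot be told from whole larvae. Of the myofibril assembly genes, *unc45b* was higher (log2 fold change 0.48, adjusted p = 0.043, edgeR) and *klhl31* lower (log2 fold change -0.43, adjusted p = 0.0097, edgeR) with *Chryseobacterium* than with *Exiguobacterium*. Of all genes tested 0.77% were called there.

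In mutants against WT larvae, 6 of 16 genes of myofibril assembly rose and 0 fell in GF larvae, and 5 rose and 1 fell in CONVD larvae, beside 31.3% and 29.7% of all genes called in either direction. The myosin chaperone gene *unc45b* stood at 18.3, 23.6 and 26.7 CPM in WT GF and 36.9, 34.9 and 34.1 CPM in GF mutants (log2 fold change 0.63, SE 0.10, adjusted p = 1.5e-05, edgeR). Among 22 filament genes outside the symbol rule, *lmod3*, which nucleates actin at thin filament ends, stood at 12.7, 15.3 and 10.7 CPM and 25.7, 24.0 and 25.5 CPM (log2 fold change 0.97, SE 0.11, adjusted p = 1.1e-08, edgeR). The fast light chain *myl1* stood at 693, 703 and 682 CPM and 1005, 998 and 946 CPM (log2 fold change 0.51, SE 0.05, adjusted p = 1.1e-09, edgeR). In none of these 3 genes did the groups overlap. Of 14 heart chamber genes 4 rose and 0 fell in GF as in CONVD larvae, among them *myl4*, an atrial light chain (log2 fold change 1.35, SE 0.11, adjusted p = 8.9e-11 in GF larvae, edgeR). The numbers called, higher and lower, in GF and then CONVD larvae were 4 and 4, and 4 and 5, of 25 genes of calcium handling. They were 2 and 0, and 3 and 0, of 17 genes of muscle energy metabolism, and 0 and 3, and 0 and 4, of 23 myogenic regulators. For 12 smooth muscle genes they were 2 and 0, and 1 and 0, and for the 29 Z disc and M band genes 8 and 3, and 11 and 2. For the 22 filament genes they were 3 and 3, and 4 and 1, and for the 12 genes of muscle wasting 2 and 5, and 2 and 4.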
